A study of Rattus norvegicus with 42 samples.

Results

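The phagocyte NADPH oxidase is the enzyme complex that neutrophils and macrophages use to make superoxide, and the results here concern the mRNA of 5 of its subunits in rat lung. The 5 genes, Ncf1, Ncf4, Cybb, Cyba and Rac2, were taken by symbol from count tables of 30044 genes shared by both time points, and all 5 were present and passed the filter on low counts. Lung RNA came from 42 male Fischer 344 rats, bought at 3 months of age, each sampled once. After 2 weeks on a regular diet (fat giving 18% of the calories) or a high-fat diet (fat giving 60%), which then continued, the rats breathed either air or crystalline silica at 15 mg/m3 for 6 hours a day on 5 days. They were sampled 3 or 9 months after exposure. At 3 months there were 4 air and 5 silica rats on the regular diet and 5 air and 5 silica rats on the high-fat diet. At 9 months there were 6 air and 5 silica rats on the regular diet and 6 air and 6 silica rats on the high-fat diet. The comparisons ask whether the subunits changed with silica, with diet and with time, and whether Ncf1 changed with time apart from the others.

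Cybb and Cyba encode gp91phox and p22phox, which together form the membrane-bound flavocytochrome that passes electrons from NADPH to oxygen. Ncf1 encodes p47phox, the cytosolic organizer whose phosphorylation lets the cytosolic complex dock on p22phox, and Ncf4 encodes p40phox, which binds phosphatidylinositol 3-phosphate on the phagosome. Rac2 encodes the blood-cell Rac GTPase that joins the complex in its GTP-bound form. In lung, the complex is known mainly from alveolar macrophages, recruited neutrophils and monocytes, and silica particles taken up by macrophages are known to set off an oxidative burst.

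Each library came from a piece of lung, and total counts per library were 5143424 to 8259635 in the 3-month rats and 3078216 to 8319382 in the 9-month rats. Surfactant protein C (Sftpc), a defining transcript of lung, had at least 28515 counts in every rat. The subunits were well covered, from 97 counts (the lowest library for Ncf4) to 1595 (the highest for Cybb). The share of counts on the mitochondrial ribosomal RNA genes Rnr1 and Rnr2 averaged 0.957% to 1.26% in the 3-month groups. At 9 months it averaged 1.22% in air and 3.67% in silica rats on the regular diet, and 6.22% and 7.66% on the high-fat diet, and each of the 4 silica or diet differences at 9 months had an adjusted p of 0.00433 (exact permutation test, two-sided, 12 comparisons). Its part in the subunit results was not tested beyond a fit that takes this share as a covariate. Time since exposure, age and count table are 1 factor here and cannot be told apart.

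The promoters of Ncf1 and Cybb are shown because these subunits had the largest and the smallest silica difference at 9 months, although both belong to 1 complex. Bases before the RefSeq start site are given for rat build GRCr8, with matches to the PU.1 core GAGGAA (or TTCCTC on the other strand) in capitals. PU.1, encoded by Spi1, is a myeloid transcription factor known to drive phagocyte oxidase genes.
Ncf1, chr12:28121635-28121884, plus strand: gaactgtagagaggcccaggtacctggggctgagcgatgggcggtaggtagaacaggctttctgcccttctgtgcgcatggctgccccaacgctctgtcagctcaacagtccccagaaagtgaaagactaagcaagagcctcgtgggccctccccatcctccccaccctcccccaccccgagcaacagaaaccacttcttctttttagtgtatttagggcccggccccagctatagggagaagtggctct
Cybb, chrX:16065066-16065315, minus strand: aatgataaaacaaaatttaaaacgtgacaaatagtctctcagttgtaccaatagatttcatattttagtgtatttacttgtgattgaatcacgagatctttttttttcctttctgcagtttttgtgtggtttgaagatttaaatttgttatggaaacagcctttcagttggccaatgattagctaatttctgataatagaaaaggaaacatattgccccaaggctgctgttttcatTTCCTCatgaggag
The Cybb window held 1 match, on the strand opposite to transcription and starting 14 bases before the start site. The windows of Ncf1 and of Cyba, the third of the 5 genes with a RefSeq promoter here, held 0, which says only that these letters are not in these 250 bases. Of 33469 rat promoter windows of this length, 23.3% held the motif on either strand.

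Ncf1, the organizer subunit, stood far higher in silica rats at 9 months than in any other group. Levels are in CPM, the count of a gene relative to the scaled library size of its rat. In air at 3 months the 4 rats on the regular diet had 36.5, 48.6, 34.2 and 42.7 CPM. The 5 silica rats beside them had 50.7, 45.9, 50.3, 58.7 and 51.9 CPM, so the groups overlapped in 1 silica rat below the highest air rat. The 3-month air rats on the high-fat diet had 30.6, 45.5, 32.6, 30.7 and 38.5 CPM. Their silica counterparts had 61.2, 55.2, 46.8, 51.0 and 50.4 CPM, and every one of them was above every air rat. At 9 months the air rats on the regular diet ran from 38.6 to 57.9 CPM with a median of 46.9. The 5 silica rats on that diet had 141.3, 181.6, 172.8, 193.6 and 142.8 CPM. None of these 5 was near any air rat or any 3-month rat. On the high-fat diet at 9 months, air rats ran from 26.6 to 41.0 CPM (median 37.3) and silica rats from 118.9 to 195.2 (median 136). The order of the 8 group means was thus headed by silica on the regular diet at 9 months (166 ± 23.4 CPM, SD, n = 5) and silica on the high-fat diet at 9 months (144 ± 27.2, n = 6), whose ranges overlapped. The other 6 means lay between 35.3 and 52.9 CPM, and neighbours among these 6 overlapped.

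**Figure D1:**
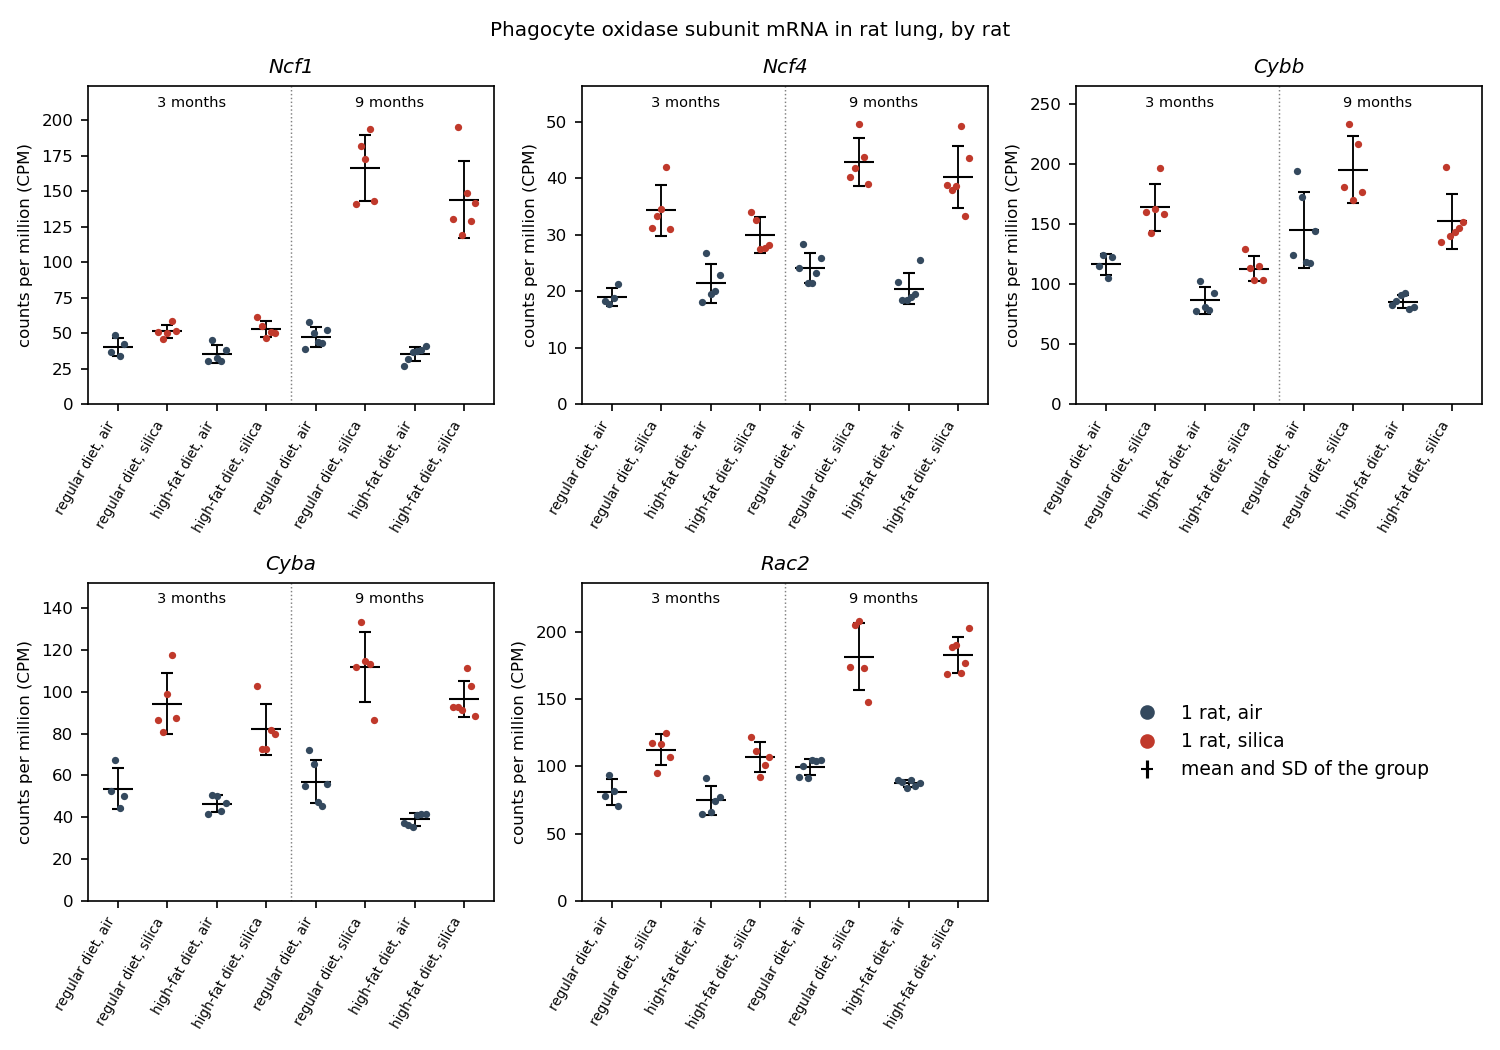
CPM (y axis, from 0) of the 5 subunit genes in each of the 42 rats (points), by diet and exposure at 3 and 9 months (x axis), with the mean and SD of each group. Ncf1 in the silica rats at 9 months lies between 118.9 and 195.2 CPM, above every other rat, while the other 4 genes show smaller differences between 3 and 9 months.

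Cybb, the catalytic membrane subunit, was higher in silica groups but also differed with diet, so that its groups spread in another order. At 3 months on the regular diet the 4 air rats had 114.98, 124.3, 105.2 and 122.9 CPM and the 5 silica rats 160.3, 143.0, 162.9, 196.7 and 158.6. High-fat air rats had 77.9, 103.0, 81.0, 78.4 and 92.5 CPM and the silica rats 129.2, 113.4, 103.4, 115.4 and 103.8. The high-fat silica rats at 3 months were therefore at the level of the regular-diet air rats, not of the regular-diet silica rats. At 9 months on the regular diet, air rats ran from 117.9 to 194.2 CPM (median 134.4), and the 5 silica rats had 181.2, 233.4, 170.5, 216.7 and 177. These ranges overlapped. On the high-fat diet at 9 months, air rats ran from 79.3 to 93.1 CPM (median 84.4) and silica rats from 134.99 to 198.06 (median 146), without overlap.

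Cyba, the stabilizing partner of gp91phox in the membrane and the docking site for p47phox, separated silica from air in each of the 4 settings. Regular-diet rats at 3 months had 52.7, 67.3, 44.3 and 50.3 CPM in air and 86.5, 80.7, 99.0, 117.6 and 87.6 with silica. High-fat rats had 41.5, 50.7, 50.1, 43.2 and 46.6 CPM in air and 102.7, 72.7, 72.7, 81.8 and 79.8 with silica. At 9 months the regular-diet air rats ran from 45.4 to 72.0 CPM (median 55.5) and the silica rats had 111.9, 133.5, 114.6, 113.4 and 86.3. The high-fat air rats ran from 35.2 to 41.7 CPM (median 39.3) and the silica rats from 88.6 to 111.3 (median 92.6). The silica ranges at 9 months overlapped those at 3 months on both diets.

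Rac2, the GTPase, was the gene whose 9-month silica rats stood highest above their 3-month counterparts after Ncf1. At 3 months it had 78.1, 93.6, 81.3 and 70.4 CPM in regular-diet air rats and 117.4, 95.2, 116.8, 124.9 and 106.8 in silica rats. High-fat rats had 64.2, 91.3, 65.8, 74.5 and 77.3 CPM in air and 121.5, 111.4, 91.9, 101.2 and 107.1 with silica. At 9 months the air rats ran from 91.2 to 105.03 CPM on the regular diet and from 83.7 to 89.8 on the high-fat diet. The silica rats had 174.1, 205.0, 208.0, 173.1 and 148.1 CPM on the regular diet and ran from 168.7 to 202.7 (median 183) on the high-fat diet. In Rac2 every 9-month silica rat was above every rat of the other 6 groups. RefSeq's GRCr8 annotation places 2 long non-coding RNA loci, LOC134479753 and LOC103692944, across Rac2. LOC103692944 was also counted here as a gene of its own, and LOC134479753 was not. As the strand setting of the counting is not given in the sources used here, how reads from such overlaps were counted for Rac2 cannot be told.

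Ncf4, which had the fewest counts of the 5, ranged from 17.7 to 21.2 CPM in regular-diet air rats at 3 months and from 30.9 to 41.9 in the silica rats. The 3-month air rats on the high-fat diet ran from 18.1 to 26.7 CPM and the silica rats from 27.4 to 34.0. Both 3-month comparisons were without overlap. At 9 months it ran from 21.4 to 28.4 CPM in regular-diet air rats and from 38.9 to 49.6 with silica, and from 18.4 to 25.4 and 33.3 to 49.2 on the high-fat diet. Silica rats were again above all air rats of their diet.

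All 5 subunits rose with silica in each of the 4 comparisons of silica with air (edgeR quasi-likelihood test, Benjamini-Hochberg adjustment over all genes tested, called below an adjusted p of 0.05). Beside this, 10.2% of all genes were called higher and 6.6% lower at 3 months on the regular diet, and 9.23% higher and 8.19% lower on the high-fat diet. At 9 months 24.5% were called higher and 20.6% lower on the regular diet, and 26.7% and 24.9% on the high-fat diet. The lung is a mixture, so more cells of a type and more RNA per cell cannot be told apart in any of these differences.

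At 3 months on the regular diet, Ncf4 rose by 0.85 ± 0.12 (log2 difference ± SE, adjusted p = 2.4e-05) and Cyba by 0.81 ± 0.12 (8.3e-05). Cybb rose by 0.49 ± 0.09 (adjusted p = 0.00078) and Rac2 by 0.47 ± 0.10 (0.003). Ncf1 had the smallest of the 5 differences, 0.34 ± 0.12 (adjusted p = 0.049), a 1.26-fold higher level. This call rests on single rats: it was kept only without air replicate 2 or silica replicate 2, and lost without any of the other 7 rats of the 2 groups, where the difference ran from 0.26 to 0.36 with adjusted p up to 0.177. On the high-fat diet at 3 months the order was different. Cyba led with 0.83 ± 0.12 (adjusted p = 2.8e-05), followed by Ncf1 at 0.58 ± 0.11 (0.00068), Rac2 at 0.52 ± 0.10 (6e-04), Ncf4 at 0.49 ± 0.11 (0.0024) and Cybb at 0.39 ± 0.09 (0.0035).

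At 9 months Ncf1 led on both diets. It rose by 1.81 ± 0.12 on the regular diet (3.51-fold, adjusted p = 8.3e-12) and by 2.02 ± 0.12 on the high-fat diet (4.06-fold, 3.7e-13), which placed it at rank 159 and 150 among 15276 genes ordered by their difference. The next subunit, Cyba, rose by 0.99 ± 0.10 on the regular diet (adjusted p = 2.1e-08) and 1.31 ± 0.10 on the high-fat diet (5.7e-11). Rac2 rose by 0.87 ± 0.07 and 1.07 ± 0.07 (adjusted p = 1.6e-10 and 9e-13) and Ncf4 by 0.84 ± 0.10 and 0.99 ± 0.09 (1.1e-07 and 2.6e-09). Cybb rose least, by 0.43 ± 0.12 on the regular diet (adjusted p = 0.0033) and 0.83 ± 0.11 on the high-fat diet (1e-06). With that ribosomal RNA share as covariate, Ncf1 differed by 1.84 (adjusted p = 5.39e-08) and 2.04 (8.39e-11). On neither diet did that share overlap between silica and air rats at 9 months, so this fit cannot fully tell share and silica apart.

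**Figure D2:**
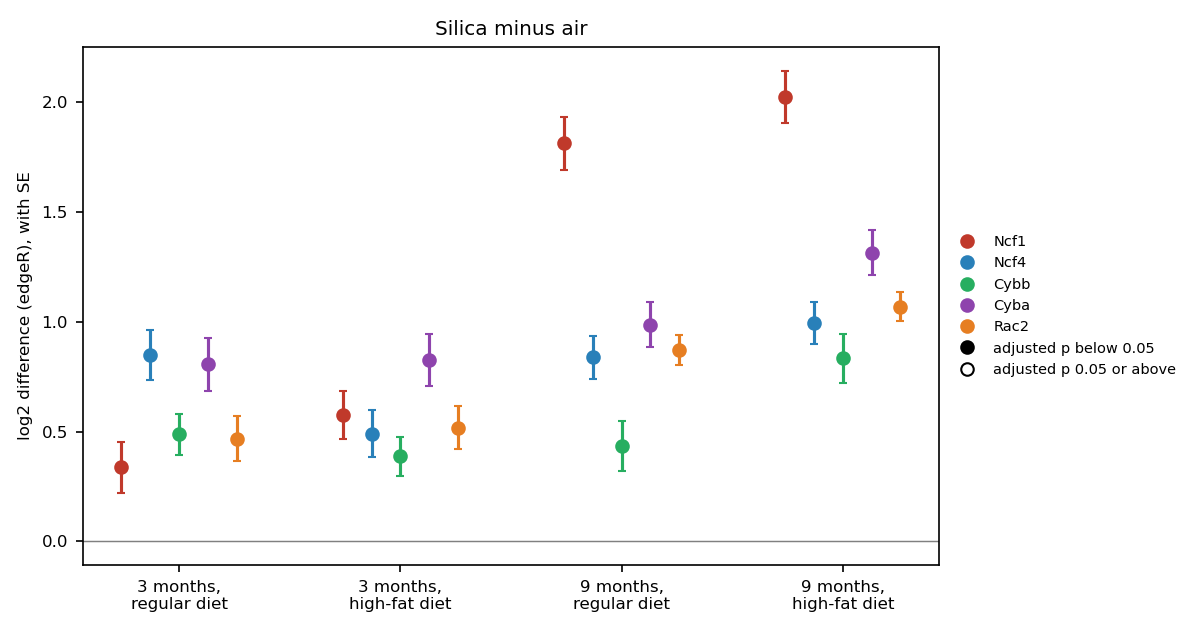
Log2 difference between silica and air rats (y axis, edgeR estimate with its SE) for the 5 subunits in the 4 comparisons (x axis); every symbol is filled, as all 20 adjusted p-values were below 0.05. Ncf1 is the lowest of the 5 at 3 months on the regular diet (0.34) and the highest at 9 months on both diets (1.81 and 2.02).

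The silica difference of Ncf1 grew between 3 and 9 months on both diets. The difference of the silica differences was 1.47 ± 0.18 on the regular diet (adjusted p = 2.5e-06) and 1.45 ± 0.17 on the high-fat diet (5.3e-07), in a fit of all 8 groups. On the regular diet 0.679% of 15759 genes stood above Ncf1 in this measure, and on the high-fat diet 0.533%. Leaving out any 1 rat moved the values no further than 1.34 to 1.54 on the regular diet and, on the high-fat diet, 1.34 to 1.50, each with an adjusted p below the threshold. The ribosomal RNA share also differed between the times in silica rats, as given below, so share and time cannot be fully told apart. On the regular diet, where 3.71% of all genes were called higher, Rac2 was the other subunit called, at 0.40 ± 0.12 (adjusted p = 0.044). It was lost with no filter on low counts (adjusted p = 0.0829), with library sizes without Rnr1 and Rnr2 (0.0514) and with the ribosomal RNA share as covariate (0.0763). With 1 rat left out it held without air replicate 4 or silica replicate 4 at 3 months or silica replicate 1 or 5 at 9 months, and was lost without any of the other 16 rats, with values from 0.29 to 0.41. Ncf4 (-0.017 ± 0.15), Cybb (-0.058 ± 0.16) and Cyba (0.17 ± 0.17) did not pass (lowest adjusted p of the 3, 0.6).

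On the high-fat diet, where 6.54% of all genes were called higher, 4 of the 5 subunits had a larger silica difference at 9 months. Beside Ncf1 these were Rac2 (0.55 ± 0.12, adjusted p = 0.002), Ncf4 (0.51 ± 0.15, 0.018) and Cyba (0.49 ± 0.16, 0.041), and Cybb had 0.44 ± 0.15 (0.058). The number called was 3 with the ribosomal RNA share as covariate, where Ncf4 did not pass (0.45, adjusted p = 0.0577), and 3 with no filter on low counts, where Cyba did not (0.47, 0.0693). It was 5 with DESeq2 and with limma voom, where Cybb passed (adjusted p = 0.0447 and 0.0221). The call of Ncf4 was also lost without air replicate 2 at 3 months (0.42, adjusted p = 0.0626). The call of Cyba held without air replicate 1 or silica replicate 1 at 3 months, air replicate 4 or 5 at 9 months, or silica replicate 1, 2, 3 or 6 at 9 months. It was lost without any of the other 14 rats, with values from 0.43 to 0.49. The values of the 2 diets were not tested against each other across time.

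**Figure D3:**
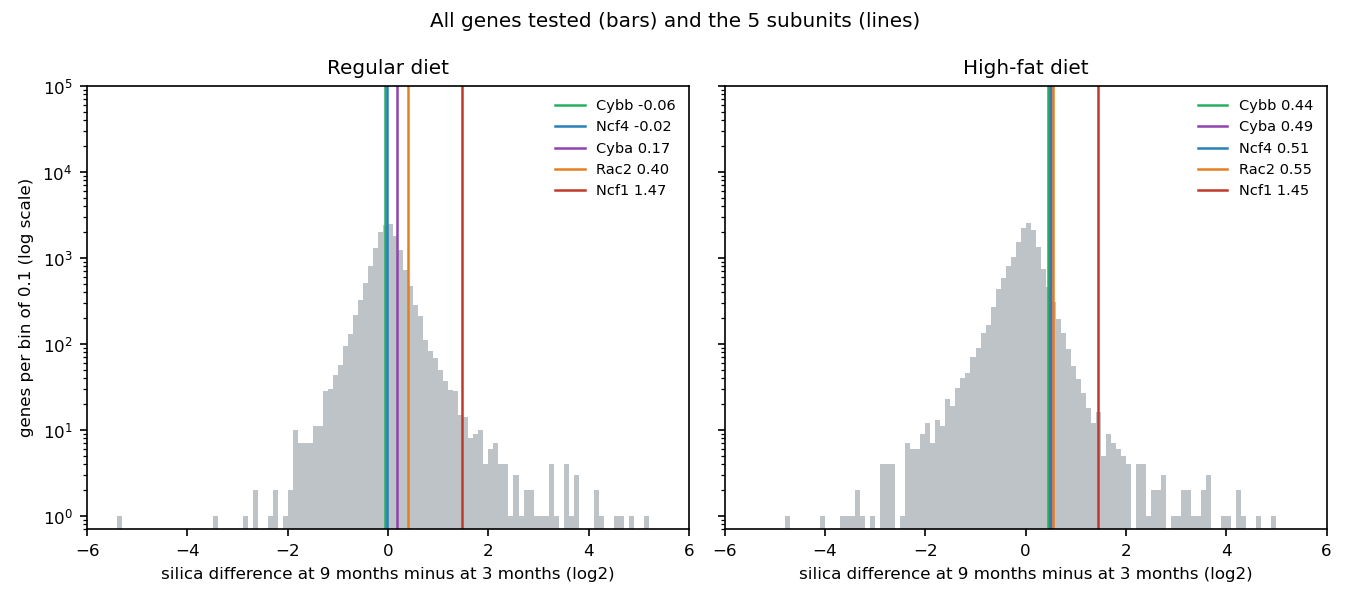
Silica difference at 9 months minus silica difference at 3 months (x axis, log2) over the 15759 genes of the joint fit, as genes per bin (bars, log y axis), with the 5 subunits as lines, for the regular diet (left) and the high-fat diet (right). Ncf1 lies at 1.47 and 1.45, and the other 4 between -0.06 and 0.40 on the left and between 0.44 and 0.55 on the right.

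Taken within each exposure, Ncf1 differed between the time points in silica rats and not detectably in air rats. With silica it was higher at 9 than at 3 months by 1.70 ± 0.12 on the regular diet (3.24-fold, adjusted p = 1.6e-14) and 1.44 ± 0.12 on the high-fat diet (2.70-fold, 3.7e-13). In air the differences were 0.23 ± 0.13 (adjusted p = 0.23) and -0.010 ± 0.13 (0.96). These comparisons share no rats, but each sets 1 table against the other.

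Among the other subunits in silica rats, Rac2 was higher at 9 months by 0.70 ± 0.09 on the regular diet (adjusted p = 1.6e-08) and 0.78 ± 0.08 on the high-fat diet (3.5e-10), and Ncf4 by 0.33 ± 0.10 (0.007) and 0.43 ± 0.10 (0.00036). With the ribosomal RNA share as covariate both Ncf4 calls were lost (0.20, adjusted p = 0.374, and 0.11, 0.88). Cybb was higher by 0.43 ± 0.11 on the high-fat diet (adjusted p = 0.0012) and differed by 0.25 ± 0.11 on the regular diet (0.059). Cyba differed by 0.25 ± 0.11 (adjusted p = 0.065) and 0.24 ± 0.11 (0.067). That makes 3 of 5 subunits called higher on the regular diet, against 21.8% of all genes, and 4 of 5 on the high-fat diet, against 25.7%. On the regular diet the count was 2 with that covariate, 5 with limma voom, and 5 without silica replicate 4 at 3 months or silica replicate 5 at 9 months, since Cybb and Cyba then passed. On the high-fat diet the count was also 2 with that covariate, so Ncf4 was not the only call lost there.

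In air rats on the regular diet 3 of 5 were called higher at 9 months, against 11.1% of all genes. These were Ncf4 (0.34 ± 0.12, adjusted p = 0.03), Cybb (0.31 ± 0.12, 0.047) and Rac2 (0.30 ± 0.09, 0.015). Cybb was lost with no filter (adjusted p = 0.0517), limma voom (0.0617) or only the groups compared (0.115). Only 1 was called without any single one of the 4 air rats at 3 months or of air replicates 2 and 6 at 9 months. Rac2 alone was called higher in air rats on the high-fat diet (0.23 ± 0.09, adjusted p = 0.035), against 17.4% of all genes, and it was not called with the ribosomal RNA covariate (0.45, adjusted p = 0.273) nor without replicate 1, 3 or 4 at 3 months or replicate 1, 2 or 6 at 9 months, where it ran from 0.17 to 0.22.

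The level of Ncf1 mRNA relative to that of its partners in the same rat needs no reference to other genes. It describes mRNA in a mixture of cells, not the make-up of the complex. It was taken as the log2 CPM of Ncf1 minus the mean log2 CPM of Ncf4, Cybb, Cyba and Rac2, and is described without a test. In 3-month silica rats it was -0.73, -0.76, -0.83, -0.84 and -0.67 on the regular diet and -0.49, -0.42, -0.50, -0.49 and -0.49 on the high-fat diet. In 9-month silica rats it was 0.37, 0.51, 0.54, 0.73 and 0.56 on the regular diet, and ran from 0.27 to 0.86 (median 0.45) on the high-fat diet. Every 9-month silica rat was thus above every other rat, the highest of which was at -0.33. As gene lengths were not used, only differences in this measure between rats can be read, not its sign. The air groups had means of -0.47 and -0.51 at 3 months and -0.49 and -0.49 at 9 months, on the regular and high-fat diet in that order. The mean moved between 3 and 9 months by 1.31 and 0.96 with silica, and by -0.020 and 0.016 in air.

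At 3 months on the regular diet the relative level moved the other way: silica rats were lower than air rats by 0.30, without overlap. At that time the difference on the high-fat diet was 0.030, with overlap. Taken against 1 partner at a time, the relative level of Ncf1 was higher in 9-month than in 3-month silica rats, without overlap, against each of Ncf4, Cybb, Cyba and Rac2 on both diets. Against Ncf4 it moved by 1.36 and 1.01, against Cybb by 1.43 and 1.00, against Cyba by 1.44 and 1.19 and against Rac2 by 0.99 and 0.65, on the regular and high-fat diet. The shift was thus present against Ncf4, also a cytosolic subunit, as well as against the membrane subunits.

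**Figure D4:**
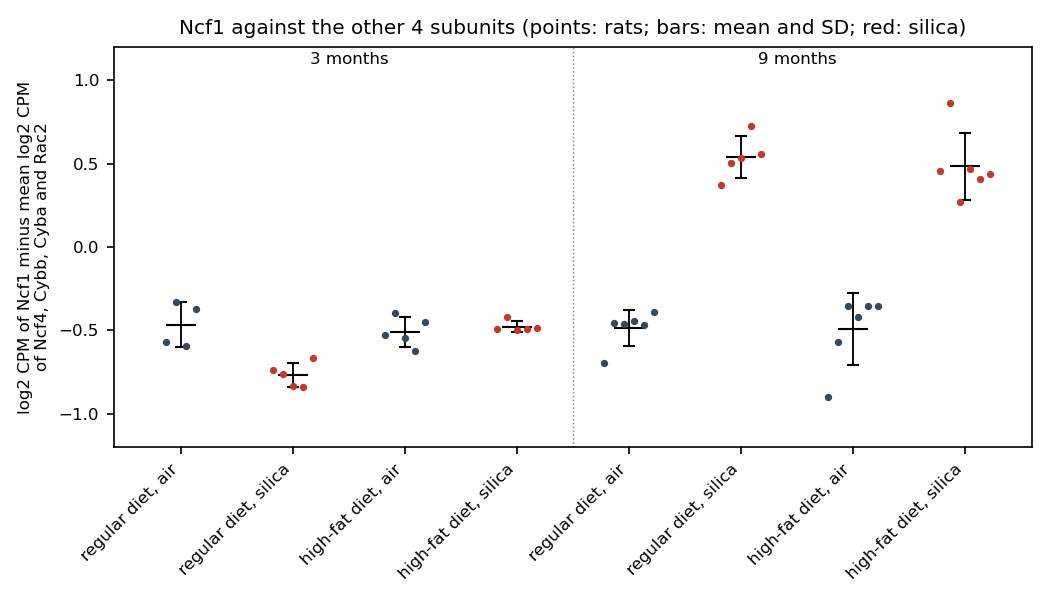
Log2 CPM of Ncf1 minus the mean log2 CPM of the other 4 subunits (y axis) in each of the 42 rats (points), by group (x axis), with the mean and SD. All 11 silica rats at 9 months lie from 0.27 to 0.86, and all other rats at -0.33 or lower.

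Differences between the diets were found mainly in Cybb. In air rats at 3 months Cybb was lower on the high-fat diet by 0.44 ± 0.09 (adjusted p = 0.019), and it was the only subunit called, where 1.3% of all genes were called lower. That call was lost with the ribosomal RNA share as covariate (-0.44, adjusted p = 0.0575), and without regular-diet air replicate 2 (-0.41, 0.0588) or replicate 4 (-0.41, 0.0802). In silica rats at 3 months Cybb was lower by 0.54 ± 0.09 (adjusted p = 0.0024), again alone, where 0.407% of all genes were called lower. In air rats at 9 months it was lower by 0.76 ± 0.11 (adjusted p = 6.5e-05), and Cyba, its membrane partner, was lower by 0.54 ± 0.10 (0.00075) and Ncf1 by 0.43 ± 0.12 (0.017). That is 3 of 5 subunits, where 7.06% of all genes were called lower. Ncf1 was not called without regular-diet air replicate 2 (-0.37, adjusted p = 0.0564).

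The other 2 subunits in 9-month air rats, Ncf4 (-0.25 ± 0.10, adjusted p = 0.086) and Rac2 (-0.19 ± 0.07, 0.054), did not pass. Rac2 passed in DESeq2 (0.0468), in a fit of only the groups compared (0.019) and without regular-diet replicate 1 or 3 (0.0457 and 0.0491), and Ncf4 passed without high-fat replicate 6 (-0.31, 0.0327). The number called thus ran from 2 to 4 without 1 rat. In silica rats at 9 months 0 of 5 subunits were called by edgeR between the diets, where 1.7% of all genes were called lower. At an unadjusted p below 0.05 there were 2, beside 2699 of all 15276 genes tested: Cyba (-0.21 ± 0.10, unadjusted p = 0.042) and Cybb (-0.37 ± 0.12, 0.0041). Cybb came nearest with an adjusted p of 0.078, passed in DESeq2 (0.0408) and in limma voom (0.039), and passed in edgeR without high-fat replicate 2 (-0.46, 0.0205). In the 9-month air comparison the ribosomal RNA share differed between the diets without overlap, and with that share as a covariate none of the 5 was called (Cybb -0.59, adjusted p = 0.756).

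**Figure D5:**
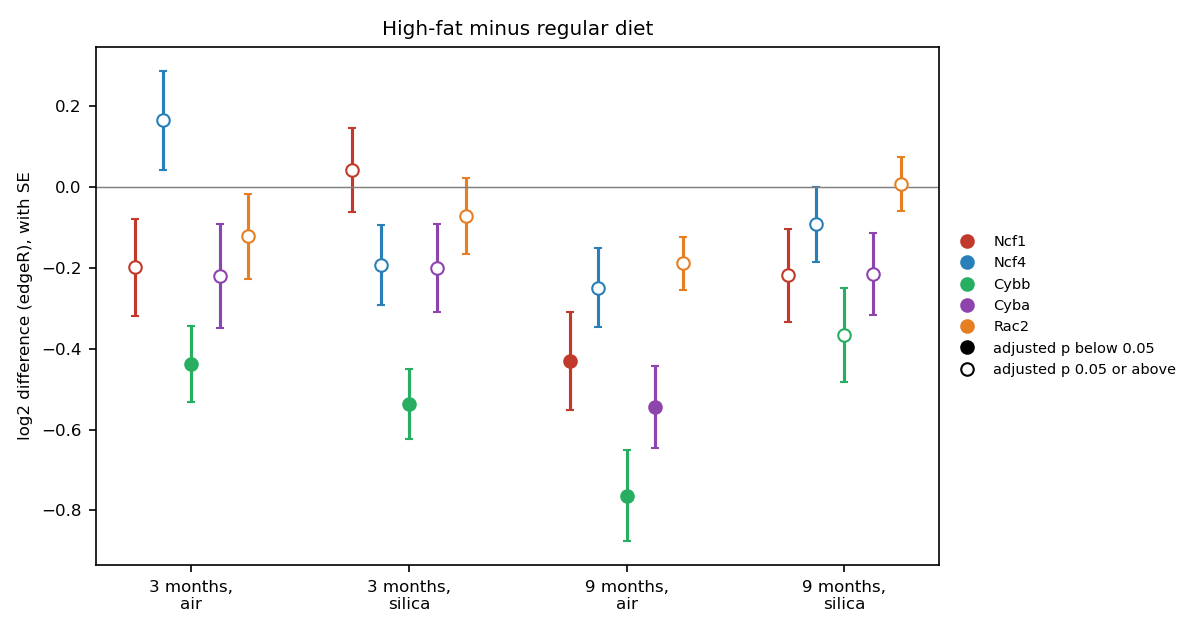
Log2 difference between high-fat and regular diet (y axis, edgeR estimate with its SE) for the 5 subunits in air and silica rats at 3 and 9 months (x axis), filled where the adjusted p was below 0.05. Cybb is the lowest of the 5 in all 4 comparisons, from -0.37 to -0.76, and is filled in 3 of them.

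Whether the silica difference itself depended on diet was tested with the interaction term. At 3 months 0 of 5 subunits and 0% of all genes were called by edgeR, with 990 of 15234 genes at an unadjusted p below 0.05. The subunit values at 3 months ran from -0.36 (Ncf4, unadjusted p = 0.034) to 0.24 (Ncf1, 0.15), and 1 of the 5 was at an unadjusted p below 0.05. DESeq2 called 1 gene of all and limma voom 0, and neither called a subunit at either time. At 9 months, where 1.09% of all genes were called, the values were 0.16 to 0.40 and again 0 of 5 passed. Of the 5, 3 were at an unadjusted p below 0.05, as were 2175 of 15276 genes: Cybb (0.40 ± 0.16, unadjusted p = 0.021), Cyba (0.33 ± 0.14, 0.03) and Rac2 (0.20 ± 0.09, 0.048). The lowest adjusted p was 0.25.

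A list of 11 assembly partners and regulators of the oxidase had 10 genes in the tables. Of these 10, 6 were called higher and 0 lower with silica at 3 months on the regular diet, and 5 higher and 1 lower on the high-fat diet. At 9 months 9 were higher and 0 lower, and 8 higher and 1 lower. Over all genes, 10.2%, 9.23%, 24.5% and 26.7% were called higher in the same order, and 6.6%, 8.19%, 20.6% and 24.9% lower. Vav1, the exchange factor that loads Rac, rose by 0.47 ± 0.09 and 0.42 ± 0.08 at 3 months and by 1.25 ± 0.08 and 1.01 ± 0.07 at 9 months. Hvcn1, the proton channel that balances the charge the oxidase moves, rose by 0.78 ± 0.13, 0.81 ± 0.12, 0.92 ± 0.12 and 1.41 ± 0.12 in the same order. Arhgdib, which holds Rac2 in its GDP-bound form, rose by 0.28 ± 0.07 to 0.52 ± 0.05. Across time 1 of 10 had a larger silica difference on the regular diet, Vav1 (0.77 ± 0.12, adjusted p = 6.1e-05), and 6 of 10 on the high-fat diet. Of all genes, 3.71% and 6.54% were called higher across time, also for the lists below.

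Receptors and kinases upstream of the oxidase, activating or inhibitory, also rose in most cases. Of 20 listed, 18 were tested, and 13 and 11 were called higher at 3 months and 16 and 16 at 9 months, with 0 lower in each. The shares of all genes called higher were 10.2% and 9.23% at 3 months and 24.5% and 26.7% at 9 months. The median difference of the list was 0.49 and 0.39 at 3 months and 0.69 and 0.93 at 9 months, beside medians over all genes from -0.0086 to 0.0045. Itgam, the integrin that binds complement-coated particles, rose by 0.77 ± 0.14 and 0.69 ± 0.13 at 3 months and by 1.93 ± 0.12 and 1.98 ± 0.12 at 9 months. Its silica difference was larger at 9 months by 1.15 ± 0.20 (adjusted p = 0.00028) and 1.29 ± 0.19 (1.4e-05), sizes nearest to those of Ncf1 among the genes named here from this list. Fcgr2b, the inhibitory Fc receptor, rose by 1.33 ± 0.12, 1.51 ± 0.12, 1.95 ± 0.13 and 2.69 ± 0.14. C5ar1, the C5a receptor, rose by 0.76 ± 0.15 to 1.50 ± 0.08, and Syk, a kinase of integrin and activating Fc receptor signalling, by 0.24 ± 0.08 to 0.90 ± 0.07. The formyl peptide receptors Fpr1 and Fpr2 had at most 12 and 6 counts in any rat and were not tested.

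Among 9 tested myeloid transcription factors, 4 and 3 were called higher at 3 months and 7 and 8 at 9 months, with 1 lower at 9 months on the regular diet. Over all genes, 10.2% and 9.23% were called higher at 3 months and 24.5% and 26.7% at 9 months. Spi1, which encodes PU.1, rose by 0.97 ± 0.14 and 0.70 ± 0.13 at 3 months and by 1.14 ± 0.07 and 1.53 ± 0.07 at 9 months. Its silica difference did not pass between the times on the regular diet (0.16 ± 0.15, adjusted p = 0.6) and was larger at 9 months on the high-fat diet (0.83 ± 0.15, 0.00021). Irf8 and Irf5, interferon regulatory factors of the monocyte and macrophage line, rose by 0.49 ± 0.10 to 1.03 ± 0.13 and by 0.57 ± 0.14 to 0.93 ± 0.11. Neither had a silica difference that passed between the times. Cebpa, a factor of granulocyte and macrophage development, rose in 3 of the 4 comparisons, by 0.60 ± 0.07 to 0.80 ± 0.07, and had 0.35 ± 0.14 (adjusted p = 0.091) at 3 months on the high-fat diet.

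The NADPH oxidases of other cell types did not share 1 direction. Of 9 genes listed, 4 were tested within the time points. Noxo1, the organizer that takes the place of p47phox beside NOX1, rose by 2.57 ± 0.12 and 2.92 ± 0.12 at 3 months and 1.80 ± 0.18 and 2.76 ± 0.19 at 9 months. Its silica difference on the regular diet was smaller at 9 months (-0.77 ± 0.25, adjusted p = 0.049), in the direction opposite to Ncf1. On the high-fat diet 0 genes of this list were called lower across time and 2 were called higher, so Noxo1 was not called lower there. Nox1 itself had at most 5 counts in any rat. Duox1, the epithelial dual oxidase, rose by 0.63 ± 0.20, 0.67 ± 0.17, 1.92 ± 0.17 and 2.29 ± 0.16, and its maturation factor Duoxa1 by 1.38 ± 0.19 and 1.59 ± 0.17 at 9 months. Nox4, a constitutive oxidase of vessel wall and fibroblasts, fell by 0.27 at 3 months on the high-fat diet and by 0.54 and 0.57 at 9 months. At 3 months on the regular diet it had -0.25 ± 0.09 (adjusted p = 0.062).

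Enzymes that use or remove superoxide and peroxide were mixed as well. Of 12 tested, 5 rose and 0 fell at 3 months on the regular diet, 4 rose and 2 fell on the high-fat diet, and at 9 months 5 rose and 4 fell and 4 rose and 4 fell. Over all genes 24.5% rose and 20.6% fell at 9 months on the regular diet, and 26.7% and 24.9% on the high-fat diet. Calls in both directions were thus not particular to this list. Sod2, the mitochondrial superoxide dismutase, rose by 1.27 ± 0.10 to 1.52 ± 0.10, and its silica difference did not pass between the times on either diet. Prdx5, a peroxiredoxin, rose by 0.88 ± 0.12 to 1.52 ± 0.10. Lpo, lactoperoxidase, rose in all 4 comparisons and had from 0 to 1387 counts per rat. Prdx6, a lung peroxiredoxin and phospholipase, fell by 0.26 at 3 months on the high-fat diet and by 0.40 and 0.18 at 9 months. Mpo, the neutrophil peroxidase that uses the oxidase's peroxide, had at most 3 counts in any rat.

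Markers of the cells that carry the oxidase moved with the same groups. The summed level of 5 pan-leukocyte genes ran from 654 to 674 CPM in regular-diet air rats at 3 months, from 791 to 912 with silica, from 727 to 812 in air at 9 months and from 953 to 1273 with silica. For high-fat rats the ranges were 557 to 822, 741 to 835, 666 to 725 and 945 to 1162 CPM in the same order. The count of leukocyte genes called higher was 3 and 2 of 4 tested at 3 months and 4 and 4 of 5 at 9 months. Of all genes, 10.2%, 9.23%, 24.5% and 26.7% were called higher in the same order. Against this sum, Ncf1 was higher in 9-month than in 3-month silica rats by 1.30 and 1.05 (log2, regular diet first), without overlap, and moved in air by 0.031 and -0.11, with overlap. Cybb against the same sum moved by -0.14 and 0.049 in silica rats, with overlap. The outcome depended on the cell type taken. The macrophage sum is carried by lysozyme (Lyz2, 44291 to 273564 counts per rat). In the neutrophil sum S100a9 reached the most counts (7415 in its highest rat). Neither sum is a measure of cell number. Against the summed general macrophage genes Ncf1 moved in silica rats by 0.59 without overlap on the regular diet and by 0.10 with overlap on the high-fat diet, and in air by -0.87 and -0.82 without overlap. Against the summed neutrophil genes it moved in silica rats by 1.36 without overlap and 0.40 with overlap. In air its means against that sum at 3 and 9 months were -1.935 and -1.97 on the regular diet, with overlap. On the high-fat diet they were -2.23 and -2.72, with overlap. Cybb in silica rats went from -6.72 to -7.57 and from -7.08 to -7.98 against the macrophage sum, without overlap. Against the neutrophil sum Cybb went from -2.04 to -2.11 and from -2.20 to -2.80, with overlap.

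The 10 neutrophil genes, of which 8 were tested, summed to 138.4 to 183.7 CPM in regular-diet air rats at 3 months and 528 to 804 with silica, and to 123 to 405 and 564 to 1492 at 9 months. For high-fat rats the sums were 101 to 262, 453 to 578, 180 to 313 and 967 to 1233 CPM. With silica 7 and 3 of the 8 rose at 3 months and 7 and 5 at 9 months. The shares of all genes called higher were 10.2%, 9.23%, 24.5% and 26.7% in the same order. S100a9, an abundant neutrophil calcium-binding protein, rose by 2.70 ± 0.21, 2.10 ± 0.19, 2.66 ± 0.28 and 2.74 ± 0.28, and its silica difference did not pass between the times. Cd177, a neutrophil surface protein, rose in all 4 comparisons, but its silica difference was smaller at 9 months (-1.45 ± 0.25 and -1.32 ± 0.30, adjusted p = 0.00024 and 0.0031). The granule genes Elane, Ltf and Camp had at most 3, 2 and 15 counts in any rat.

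Of 7 general macrophage genes tested, 5 and 5 rose at 3 months and 6 and 6 at 9 months. Over all genes, 10.2%, 9.23%, 24.5% and 26.7% were called higher in the same order. The summed level of the macrophage genes is carried by lysozyme (Lyz2, 44291 to 273564 counts per rat, from a family of near-identical copies) and was higher at 9 months in air as well. It ran from 8297 to 10838 CPM in regular-diet air rats at 3 months and from 16512 to 24390 at 9 months, and from 15643 to 20783 and 33536 to 42736 with silica. High-fat rats had 8069 to 8514 and 12856 to 15312 CPM in air and 13627 to 17573 and 31715 to 43945 with silica. Cd68, a lysosomal protein of macrophages, rose by 1.21 ± 0.13, 1.21 ± 0.12, 1.68 ± 0.09 and 2.26 ± 0.09. Across time 1 of the 7 had a larger silica difference at 9 months on the regular diet and 3 on the high-fat diet, with 0 smaller. That of Cd68 was 0.47 ± 0.16 (adjusted p = 0.071) and 1.06 ± 0.16 (1.7e-05). The complement gene C1qa rose by 0.59 ± 0.08 to 0.83 ± 0.08, and had 0.24 ± 0.11 and -0.065 ± 0.10 across time (adjusted p = 0.18 and 0.75).

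Of 7 alveolar macrophage genes, 3 of 6 tested rose at 3 months on each diet and 5 and 6 of 7 rose at 9 months, while Car4, also a capillary endothelial gene, fell in all 4. The shares of all genes called higher were 10.2% and 9.23% at 3 months and 24.5% and 26.7% at 9 months. Siglec1, the sialic acid receptor sialoadhesin, rose by 0.52 ± 0.17 and 0.60 ± 0.17 at 3 months and 1.52 ± 0.11 and 2.05 ± 0.11 at 9 months, and its silica difference was larger at 9 months by 1.00 ± 0.21 (adjusted p = 0.0023) and 1.46 ± 0.20 (6.6e-06). Fabp4, a fatty acid binding protein, had 2.11 ± 0.27 and 1.99 ± 0.29 in that measure (adjusted p = 3.4e-06 and 1.4e-05). Itgax, the CD11c integrin, rose with silica in all 4 comparisons, and its difference between the times did not pass (-0.52 ± 0.17 and -0.23 ± 0.17). Marco, a scavenger receptor of alveolar macrophages, had at most 19 counts in any rat. The part of these cells in the subunit changes was not tested.

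Of 3 monocyte genes tested, 1 and 0 rose at 3 months and 3 and 2 at 9 months, and of 5 T cell genes 0 and 0 rose at 3 months and 5 and 2 at 9 months. Over all genes, 10.2%, 9.23%, 24.5% and 26.7% rose in the same order, and 6.6%, 8.19%, 20.6% and 24.9% fell. No B cell gene was called in any of the 4 silica comparisons, and the eosinophil list held 1 gene that could be tested, Ccr3, which fell by 0.54 at 9 months on the high-fat diet. Among heart muscle genes only Actc1 was called, lower at 9 months on the high-fat diet (-1.87 ± 0.74), and the summed level of the 4 genes ran from 5.32 to 686 CPM over all rats. The red cell genes Hbb and Alas2 fell by 0.68 and 0.77 at 3 months on the high-fat diet, and Hbb by 0.70 at 9 months. Of the 6 lung epithelial and endothelial genes, 1 rose and 2 fell in each comparison other than that at 9 months on the high-fat diet, where 2 rose and 3 fell. Ager and Pecam1 fell in all 4. Sftpc rose at 3 months on both diets and at 9 months on the high-fat diet, and Cldn18, a tight junction gene of alveolar epithelium, rose at 9 months on both diets.

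Across the 42 rats the 5 subunits varied together, with Pearson correlations of log2 CPM from 0.739 (Cybb with Rac2) to 0.945 (Ncf1 with Rac2). After each group's mean was subtracted they ran from 0.315 (Ncf4 with Cybb) to 0.754 (Ncf1 with Cybb). These values describe rats that share groups, tables and library scaling.

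The 5 genes most like Ncf1 over the 42 rats, of 14185 genes with a mean log2 CPM of at least 1, were Stk10 (r = 0.966), Mpeg1 (0.962), Rnaset2 (0.96), Gm2a (0.958) and Ctsb (0.956). Stk10 encodes a serine/threonine kinase of lymphoid and myeloid cells and Mpeg1 the macrophage pore-forming protein perforin-2. Rnaset2, Gm2a and Ctsb encode the lysosomal proteins RNase T2, the GM2 activator and cathepsin B. Within groups their correlations with Ncf1 were 0.488 to 0.655. For Cybb the 5 were Trem2 (0.939), Mrc1 (0.936), Naaa (0.919), Gsap (0.915) and Sla (0.915), with 0.645 to 0.752 within groups. Trem2 and Mrc1 encode a lipid receptor and the mannose receptor of macrophages, and Naaa a lysosomal amidase. The 2 sets shared no gene, which says little for sets of 5 among 14185 genes. Ncf1 and Cybb themselves had an r of 0.759 over the 42 rats.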

How the data were processed

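Lung RNA of 42 rats was sequenced as stranded total RNA libraries after removal of ribosomal RNA, per the labels' protocols. The authors deposited 1 table per time point with read counts per gene symbol and rat, 30045 rows each, and 0 columns were of no sample. The submitters' processing notes name, with no order or role, the aligners TopHat2 (2.0.9) and Bowtie2 (2.2.9), the counter HTSeq (0.6.1), SAMtools (0.1.19), the trimmer Trimmomatic (0.35), bcl2fastq (2.19) and build Rnor_6.0. The strand setting of the counting is not given in the sources used here. Each rat is 1 library, the labels give no batch or litter, and no 2 rats' counts agreed within counting error (lowest chi-square per degree of freedom 1.93).

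From these counts, genes were filtered by filterByExpr, scaled by TMM and fitted with edgeR 4.0.16 (quasi-likelihood, legacy=FALSE, R 4.3.3). The 4 groups of a time point entered 1 fit (15234 genes at 3 months, 15276 at 9 months), and all 8 groups entered a joint fit for comparisons across time (15759 genes). P-values were Benjamini-Hochberg adjusted over all genes of a fit, and 16 comparisons were made. The SE is the size of the difference divided by the square root of F. CPM levels use the joint scaling, and log2 CPM has a prior of 0.5 counts. Alternatives used DESeq2 1.42.0, limma 3.58.1 (voom) and other scalings, filters and samples. The fit was tested on simulated data. Levels are not compared between genes, as gene lengths were not used.

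The 5 subunits, the gene lists and the tests were chosen with earlier results of these data known. Named genes are the 5 subunits, the 5 genes most like Ncf1 and Cybb, and from each list up to 4 genes called in the most silica comparisons, of which 1 is not reported here. Genes given for their low counts, and Ncf1's neighbours, were named after their values were seen. RefSeq promoters (GRCr8) matched 3 of the 5 subunits and were cut to the 250 bases before the start.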

Additional observations from a re-analysis of the deposited data

Results flagged for a closer look

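Silica differences that differed between 3 and 9 months, by the test of that difference in edgeR, were those of Ncf1 on the regular diet (1.47 on the log2 scale) and the high-fat diet (1.45), of Rac2 on both (0.40 and 0.55), and of Ncf4 (0.51) and Cyba (0.49) on the high-fat diet. All 6 were larger at 9 months. For Ncf1, all 11 silica rats at 9 months lay above all 10 at 3 months. Among 40 checks of a single rat against its group, 1 stood out: Cybb in replicate 2 of the silica rats on the high-fat diet at 9 months, at 198 CPM beside 152 for the next rat. Chance gives about 1 such case in 20 groups. The same rat had the highest Ncf1 of its group (195 CPM) and the lowest total count of all libraries.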

How the results depend on the processing

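No paired analysis was possible because the labels share no rat, litter or batch number between groups. Of 620 values under another setting, 584 kept their direction and side of the threshold, and of 1050 values without 1 rat, 946 did. Of the 20 calls of a subunit between silica and air, 19 held in each setting run and without each rat. The other, Ncf1 at 3 months on the regular diet, was 0.33 with RLE scaling (edgeR, adjusted p = 0.0503) and 0.32 with the share of ribosomal RNA as covariate (0.0969), and ran from 0.26 to 0.44 without 1 rat. With that covariate the number of subunits called was 0 for diet in air at 3 and at 9 months and for air on the high-fat diet across time, 2 for silica on the high-fat diet across time, and 1 for the silica difference across time on the regular diet. The last was also 1 with no filter or with library sizes without Rnr1 and Rnr2. For diet in silica rats at 9 months it was 1 with DESeq2, voom or only the groups compared. Across time it was 5 for silica on the regular diet with voom and 2 for air on the high-fat diet with only the groups compared. Over all genes the covariate gave 1 call in place of 2325 for diet in air and 1 in place of 537 in silica at 9 months, 92 in place of 449 for diet in air at 3 months, and 325 in place of 5663 and 1060 in place of 7650 across time in air and in silica on the high-fat diet. It gave 4561 in place of 6886 for silica at 9 months on the regular diet, 4044 in place of 6617 across time in silica on that diet and 284 in place of 1068 for the silica difference across time there. DESeq2, voom and the groups compared alone gave 721, 878 and 761 for the 449, DESeq2 and the groups alone 221 and 59 for the 107 of diet in silica at 3 months, and DESeq2 and voom 343 and 273 for the 167 interactions at 9 months, and at 3 months DESeq2 gave 1 for 0.

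Without 1 rat the number of subunits called ran from 0 to 1 for diet in air at 3 months, 0 to 1 for diet in silica at 9 months, 1 to 2 and 2 to 5 for the silica difference across time on the regular and high-fat diet, 1 to 3 for air and 3 to 5 for silica across time on the regular diet, and 0 to 1 for air across time on the high-fat diet. Values near 0 that changed sign were those of Cyba in the 3-month interaction (voom -0.0047), Ncf4 and Cybb in the silica difference across time on the regular diet (voom 0.018 and 0.00058, and Cybb 0.028 with the covariate), and Ncf1 and Cybb in air across time on the high-fat diet (0.059 and 0.15 with the covariate). Without 1 rat, changes of sign were also seen for Ncf1 with diet in silica at 3 months (-0.016 to 0.090), Cyba and Rac2 in the 3-month interaction (-0.11 to 0.11 and -0.029 to 0.15), Rac2 with diet in silica at 9 months (-0.056 to 0.060), and Ncf4 and Cybb in the silica difference across time on the regular diet (-0.10 to 0.034 and -0.14 to 0.043). The same held across time in air for Cyba on the regular diet (-0.0076 to 0.21) and for Ncf1, Ncf4 and Cybb on the high-fat diet (-0.071 to 0.094, -0.15 to 0.014 and -0.062 to 0.054). The cause was not tested.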

Other observations

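In RefSeq's GRCr8 annotation Gtf2i and Gtf2ird2, general transcription factor genes, neighbour Ncf1. With silica Gtf2i had 0.24 ± 0.08 (log2 difference ± SE, edgeR, adjusted p = 0.014) and 0.043 ± 0.07 (0.65) at 9 months on the regular and high-fat diet, and Gtf2ird2 had 0.30 ± 0.13 (0.063) and 0.12 ± 0.12 (0.44). The silica difference across time was 0.35 ± 0.11 (adjusted p = 0.037) and 0.048 ± 0.10 (0.81) for Gtf2i, and 0.36 ± 0.19 (0.26) and 0.012 ± 0.18 (0.98) for Gtf2ird2. In air rats at 9 months Gtf2i was higher on the high-fat than on the regular diet, by 0.44 ± 0.07 (adjusted p = 0.00022), where Ncf1 was lower. That Ncf1 call was lost without regular-diet air replicate 2. The ribosomal RNA share differed between these groups without overlap, and with it as covariate 1 gene was called in place of 2325.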
